A study of Mus musculus with 2 samples.

Results

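Peaks of Pwp1 at the distal ends of 13 mouse autosomes were examined in chromatin immunoprecipitation followed by sequencing (ChIP-seq). The members were all peaks of chromosomes 2, 3, 7, 8, 9, 10, 12, 13, 15, 16, 17, 18 and 19 whose centre lay within 10 Mb of the end of the last peak on the same chromosome. There were 342 of them, or 12.1% of the 2827 peaks on these chromosomes and 6.06% of the 5639 peaks of the whole list. The remaining 2485 peaks of the same 13 chromosomes were the comparison. The 6 autosomes left out were those whose density, or whose density in the distal part, had stood out earlier in this peak list. The distal window was counted back from the last peak, because chromosome lengths of mm9 were not used here. Any stretch without peaks beyond the last peak therefore lay outside the window.

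The study sequenced 1 library immunoprecipitated with an antibody against Pwp1 and 1 input DNA library, the latter made without antibody. Both came from E14.1 mouse embryonic stem cells, with no genetic change or drug named in the labels, grown on gelatin in medium containing 15% serum and LIF at 1000 units per ml, a cytokine added to hold such cells undifferentiated. Its stated aim was to find the binding sites of Pwp1. Only the peak list of the ChIP library was analysed here, so the identity of the cells could not be checked against marker genes.

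Pwp1 is a protein built of WD repeats, which fold into a propeller and serve as a platform for contacts with other proteins. It is found in the nucleus and the nucleolus, where it is known for a part in transcription of ribosomal RNA genes by RNA polymerase I. Mouse autosomes carry their centromere at one tip, which is where their coordinates begin, so the last peaks of a chromosome lie towards the telomere of its long arm. The ribosomal RNA gene arrays of the mouse lie at the other tip, near the centromere of some chromosomes.

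The distal ends of the peak spans held more Pwp1 peaks per Mb than the rest of the same chromosomes. The last 10 Mb held 2.63 ± 0.692 peaks per Mb and the rest 1.83 ± 0.284 (mean ± SD over 13 chromosomes, 1 library). The density was higher at the end on 12 of the 13 chromosomes and lower on 1, chromosome 17. Because each window starts at the last peak, a window counted from the true chromosome end would hold as many peaks or fewer. The density at the ends can therefore be overstated, and that up to the true ends was not measured. The mean log2 ratio was 0.49 ± 0.41 (SD over 13 chromosomes), a 1.41-fold higher density (exact permutation test over all 8192 sign changes of the chromosomes, 2-sided, p = 0.00244, adjusted p = 0.0122 over the 5 comparisons made in this way). Counted together, the ends made up 8.64% of the span covered by peaks and 12.1% of the peaks. The call did not hold for the last 5 Mb, where the mean log2 ratio was 0.24 (exact permutation test, p = 0.572). There 10 chromosomes had a ratio above 1 and 3 below it: chromosome 17, with 1 peak and a ratio of 0.085, chromosome 18 with 0.667 and chromosome 8 with 0.952. Without chromosome 17, left out after its count was seen and therefore given with no test, the mean log2 ratio of the last 5 Mb was 0.55.

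Among the 13 chromosomes the size of the difference ranged from 2.15-fold higher to 0.739-fold. Chromosome 12 had the largest ratio, with 32 peaks in its last 10 Mb, or 3.20 per Mb, against 1.49 per Mb in the rest (ratio 2.15, 95% interval 1.42 to 3.16). Chromosome 8 followed with 34 peaks, or 3.40 per Mb against 1.76 (ratio 1.93, 1.30 to 2.79), of which 9 lay in the last 5 Mb. Chromosome 9 had the most peaks of the 13 ends, 35, or 3.50 per Mb against 2.14 (ratio 1.64, 1.11 to 2.34). The intervals of these ratios overlap, so no order among the 3 chromosomes was shown.

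Chromosome 15 had 34 peaks at its end, or 3.40 per Mb against 1.91 (ratio 1.78, 1.19 to 2.58). Chromosome 16 had 27 peaks, or 2.70 per Mb against 1.56 (ratio 1.73, 1.10 to 2.63). Chromosome 7 had 30 peaks, or 3.0 per Mb against 1.88 (ratio 1.60, 1.06 to 2.34). On these 6 chromosomes the difference passed the exact conditional test of 2 Poisson counts, with adjusted p = 0.00112 for chromosome 12, 0.00391 for 8, 0.00956 for 15, 0.0256 for 9, 0.0286 for 16 and 0.0353 for 7 (Benjamini-Hochberg over all 19 autosomes).

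On the other 7 chromosomes the difference did not pass this test. Chromosome 2 had 29 peaks at its end (ratio 1.4, 0.927 to 2.05) and chromosome 19 likewise had 29 (ratio 1.31, 0.837 to 1.99). Chromosome 10 had 20 peaks (ratio 1.23, 0.734 to 1.96), and chromosomes 13 and 18 had 19 each (ratios 1.19, 0.700 to 1.92, and 1.09, 0.635 to 1.77). Chromosome 3 had 17 peaks (ratio 1.17, 0.668 to 1.92). Chromosome 17 also had 17, at 1.70 per Mb against 2.30 in the rest, a ratio below 1 that did not pass (ratio 0.739, 0.421 to 1.21, adjusted p = 0.333 by the same exact test). With 17 to 35 peaks in a window, differences smaller than these intervals were not detectable on a single chromosome.

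The share of chromosomes with a denser end was close to that over all 19 autosomes, of which the 13 are a part. The test called the end higher on 6 of the 13 chromosomes, or 46.2%, while it did so on 10 of all 19 autosomes, or 52.6%. It called the end lower on 0 of 13, or on 0% of the 19, and 0 of the 13 were lower at an unadjusted p under 0.05 by the same exact test. With the last peak of each chromosome left uncounted, 4 of the 13 were called. The window stayed tied to that peak, so this does not show how the calls depend on where the window starts. A higher density at the end was therefore not particular to these 13. On the 6 autosomes left out, the ratio ran from 0.792 on chromosome 11 to 3.25 on chromosome 4. The intervals and these tests treat peaks as independent and cover counting error only, so they can be too narrow where peaks gather.

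**Figure D1:**
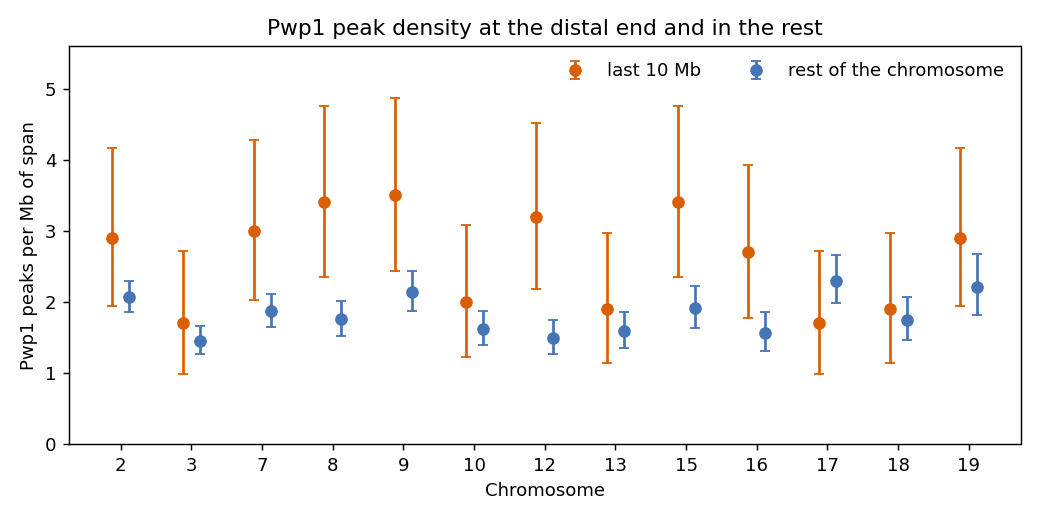
Density of Pwp1 peaks (peaks per Mb of span, y axis) in the last 10 Mb (orange) and in the rest (blue) of each of the 13 chromosomes (x axis), with exact 95% Poisson intervals for counting error. The orange point lies above the blue one on 12 chromosomes and below it on chromosome 17, and the intervals of the ends are wide because each rests on 17 to 35 peaks.

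Peak number varied strongly along each chromosome, and the ends stayed inside that variation on most of them. Each chromosome was divided into whole windows of 10 Mb counted back from the end, which gave 131 windows besides the 13 at the ends. The remainder shorter than 10 Mb at the centromere side of each peak span was left out. The end windows held a median of 29 peaks, with 17 as the lowest and 35 as the highest. The other windows held a median of 16, with 3 as the lowest and 55 as the highest. Every end thus held more than the median of all 131 other windows, and single inner windows held more than any end. On 12 chromosomes the end held more peaks than the median of its other windows. Among these whole windows the end ranked first on chromosomes 8, 12 and 19, with 1 other window of chromosome 19 at the same count. The end of chromosome 19 was still not its densest part. Its first 10 Mb, which lie mostly in the remainder left out, held 35 peaks against 29 at the end. The end ranked second on chromosomes 7, 9 and 15. On chromosome 17 it ranked sixth of 9, with 17 peaks against a median of 19, while another window of that chromosome held 55.

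**Figure D2:**
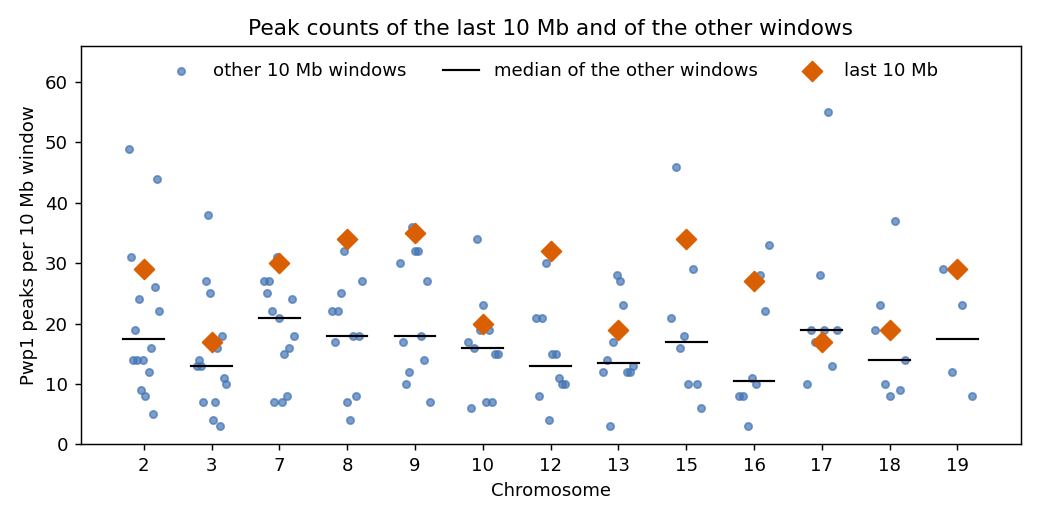
Number of Pwp1 peaks per 10 Mb window (y axis) on each chromosome (x axis). Orange diamonds mark the window at the end, blue points the other whole windows and black lines the median of the latter. The diamonds lie between 17 and 35 peaks, above the black line on 12 chromosomes, while single inner windows of chromosomes 2, 15 and 17 reach 49, 46 and 55 peaks.

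Counted in steps of 10 Mb from the end, the mean density over the 13 chromosomes was 2.63 ± 0.692 peaks per Mb (SD over chromosomes, as below) in the last 10 Mb, 2.14 ± 1.09 from 10 to 20 Mb and 1.85 ± 1.10 from 20 to 30 Mb. It was 1.5 ± 0.731 from 30 to 40 Mb and 1.84 ± 0.900 from 40 to 50 Mb. These steps are a description and overlap widely between chromosomes. No break was seen at the limit that defines the members. The megabase just inside it held 29 peaks over all 13 chromosomes, and the megabase just outside held 27.

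Averaged over chromosomes, the 2 ends of the peak span differed in windows of 10 Mb. The first 10 Mb after the first peak, on the centromere side, held a median of 16 peaks, with 7 on chromosome 9 as the lowest and 35 on chromosome 19 as the highest. The last 10 Mb held more than the first on 10 of 13 chromosomes, by a mean log2 ratio of 0.67 ± 0.79 (SD), or 1.59-fold (exact permutation test, 2-sided, p = 0.00879, adjusted p = 0.0220 over the 5 comparisons). Chromosome 9 showed the largest contrast, with 35 peaks at the distal and 7 at the proximal end. Chromosome 15 had 34 and 11. The counts were nearly equal on chromosome 10, with 20 and 19, and on chromosome 16, with 27 and 25. The 3 chromosomes with fewer peaks at the distal end were 17, with 17 against 22, 18, with 19 against 20, and 19, with 29 against 35. In windows of 5 Mb this contrast did not pass, at a mean log2 ratio of 0.41 (exact permutation test, p = 0.376). It was 0.76 without chromosome 17, again left out after its count was seen and given with no test.

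Within the last 10 Mb the peaks were split evenly between the outer and the inner part when all chromosomes were counted together. The outer 5 Mb held 172 peaks and the inner 5 Mb held 170. On 8 chromosomes the outer part held more and on 5 the inner part. The split was most uneven on chromosome 17, with 1 peak in the outer and 16 in the inner 5 Mb, and on chromosome 8, with 9 and 25. Chromosomes 15 and 7 went the other way, with 23 and 11 peaks and with 21 and 9. Of the 130 stretches of 1 Mb that make up the ends, 26 held no peak and 26 held 5 or more. The median stretch held 2.

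Among these 130 stretches the densest held 9 peaks and lay on chromosome 19, at 57159456 to 58159455 of mm9, between 3 and 4 Mb from the last peak end. Equal in next place, with 8 peaks each, were 112170895 to 113170894 on chromosome 12, 118892192 to 119892191 on chromosome 9 and 179647055 to 180647054 on chromosome 2. The last of these is the outermost megabase of chromosome 2, while the others lie at 4 to 6 Mb from the end. Which genes lie there was not analysed here.

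Some members were separated by long stretches without a peak, of which the 3 longest within the ends are given. On chromosome 17 the last peak, at 95147922 to 95148088 and 167 bp wide, stood 5.91 Mb away from the one before it, at 89235725 to 89235878. This single peak therefore sets where the last 10 Mb of chromosome 17 begin. On chromosome 2 an interval of 4.78 Mb parted the peak ending at 174405015 from the one starting at 179185915, so that its 29 peaks fell into 12 at the outer side and 17 at the inner side of the gap. On chromosome 10 the interval was 3.43 Mb, between 123332805 and 126759791. Neighbouring members lay a median of 197 kb apart, with quartiles of 74.9 and 421 kb, and 23 of the 329 intervals between them exceeded 1 Mb.

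**Figure D3:**
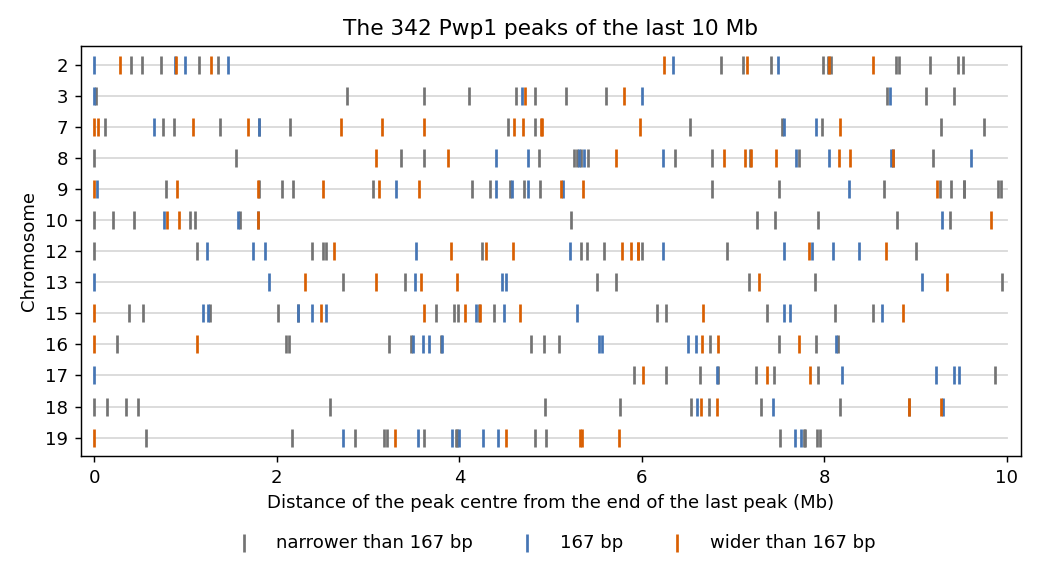
Distance of each of the 342 member peaks from the end of the last peak (Mb, x axis) on the 13 chromosomes (rows), coloured by whether the peak is narrower than, equal to or wider than the commonest width of 167 bp. Only chromosomes 7, 9 and 12 have a peak in every megabase of the window. The gaps of 5.91 Mb on chromosome 17 and of 4.78 Mb on chromosome 2 are the longest empty stretches between members.

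Few members lay close together. A neighbour within 10 kb was present for 28 of the 342 peaks, or 8.19% (exact 95% interval 5.51 to 11.6), against 158 of 2485, or 6.36% (5.43 to 7.39), in the rest. Averaged over chromosomes the share was 1.82 ± 4.78 percentage points higher at the ends (SD), higher on 7 chromosomes, lower on 5 and equal on chromosome 16, where it was 0% in both parts. This did not pass (exact permutation test, 2-sided, p = 0.189, adjusted p = 0.237). The median distance to the nearest peak was 96.9 kb for the members and 115 kb for the rest, beside the higher density at the ends.

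The closest members were pairs less than 1 kb apart. On chromosome 15 a peak at 100914791 to 100914957 (167 bp) and one at 100915276 to 100915396 (121 bp) had centres 462 bp apart. On chromosome 18 the centres of the peaks at 80629269 to 80629366 (98 bp) and 80629670 to 80629906 (237 bp) were 470.5 bp apart. On chromosome 8 the peaks at 122526618 to 122526810 (193 bp) and 122527381 to 122527547 (167 bp) were 750.0 bp apart. Only 4 of the 329 neighbouring pairs were within 1 kb and 14 within 10 kb. Whether such pairs are 1 binding region listed as 2 peaks was not tested.

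Peak width, which the choice of the members did not use, had the same median at the ends and elsewhere. The share of narrower peaks was larger among the members. The 342 members had a median width of 167 bp, quartiles of 121 and 168 bp and a range of 87 to 307 bp. The other 2485 peaks also had a median of 167 bp, with quartiles of 124 and 171 bp and a range of 58 to 414 bp. Both medians fell among the peaks of exactly 167 bp, or 25.7% of the members and 29.7% of the rest. An equal median therefore says little about the other widths. Narrower than 167 bp were 48.8% of the members (exact interval 43.4 to 54.3) and 43.4% of the rest (41.4 to 45.4). The difference in this share was not tested. Together the members covered 53.1 kb. The mean width was 155 ± 7.38 bp at the ends and 159 ± 2.44 bp in the rest (SD over 13 chromosome means). The ends were narrower on 9 chromosomes and wider on 4, by a mean of -4.46 ± 7.89 bp, which did not pass (exact permutation test, 2-sided, p = 0.0659, adjusted p = 0.110). With peaks within 1 kb merged the difference was 0.13 bp (exact permutation test, p = 0.976).

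The share of wider peaks showed no difference beyond the spread between chromosomes. Wider than 167 bp, the commonest width, were 87 members, or 25.4% (20.9 to 30.4), and 669 other peaks, or 26.9% (25.2 to 28.7). Over chromosomes the share differed by -2.06 ± 8.18 percentage points (SD), higher at the end on 5 and lower on 8 (exact permutation test, 2-sided, p = 0.379, adjusted p = 0.379). The share at the end was highest on chromosome 7, with 13 of 30 peaks or 43.3% (25.5 to 62.6) against 29.5% in the rest. It was lowest on chromosome 3, with 2 of 17 or 11.8% (1.46 to 36.4) against 27.1%. Both intervals include the share of the rest of their chromosome.

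**Figure D4:**
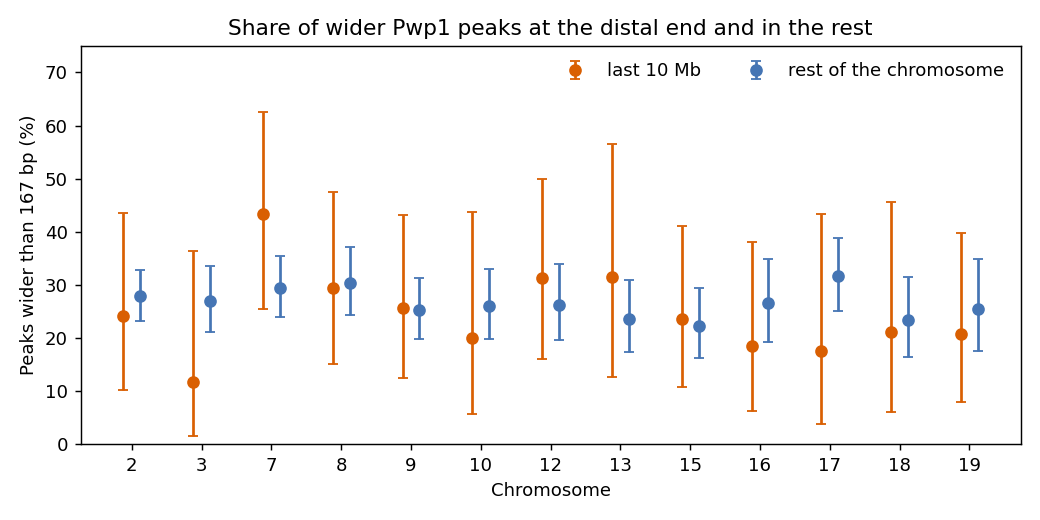
Share of Pwp1 peaks wider than 167 bp (%, y axis) in the last 10 Mb (orange) and in the rest (blue) of each chromosome (x axis), with exact 95% Clopper-Pearson intervals. The orange points scatter from 11.8% to 43.3% on both sides of the blue ones, and each orange interval spans the blue point of its chromosome.

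In each class of width the pooled density was higher at the ends than in the rest, though for 1 class the interval of the ratio included 1. Peaks narrower than 167 bp numbered 167 at the ends, or 1.28 per Mb against 0.784 in the rest (ratio of the pooled counts 1.64, 95% interval 1.38 to 1.93). Those of exactly 167 bp numbered 88, or 0.677 against 0.537 per Mb (1.26, 0.999 to 1.57). The wider ones numbered 87, or 0.669 against 0.487 per Mb (1.38, 1.09 to 1.72). In a comparison chosen after seeing the data and averaged over chromosomes, the log2 ratio of narrow peaks was 0.66 (exact permutation test, p = 0.000977) and that of wider peaks was 0.31 and did not pass (exact permutation test, p = 0.177). The 3 intervals overlap, and the difference between the width classes was not tested.

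The 5 widest members lay on 5 chromosomes. They were at 150914749 to 150915055 on chromosome 7 (307 bp), 107736767 to 107737057 on chromosome 13 and 87309570 to 87309860 on chromosome 17 (291 bp each), 112287867 to 112288139 on chromosome 12 (273 bp) and 124378165 to 124378435 on chromosome 8 (271 bp). The first lay 1.08 Mb from the last peak end of its chromosome and the others between 5.88 and 9.35 Mb from theirs. The one on chromosome 12 fell in the dense megabase named above.

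The 13 outermost peaks, which set the windows, spanned much of the range of widths. Their widths ran from 91 bp on chromosome 10 to 260 bp on chromosome 16, with a median of 167 bp. Of them 4 were narrower than, 4 equal to and 5 wider than the commonest width. The peak before them stood at a median distance of 284 kb, with 14.4 kb on chromosome 3 as the shortest and 5912 kb on chromosome 17 as the longest. The outermost peak was thus part of a populated stretch on some chromosomes and isolated on others.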

How the data were processed

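Peaks were deposited by the authors for 1 Pwp1 ChIP library as positions without a header, with no score, height or p-value, so the sequencing depth is unknown. Build mm9 and the tools Bowtie 0.12.7, HOMER 4.3 and CASAVA 1.4 are listed, without roles, per the submitters' processing notes. Nothing in the sources used here gives the peak threshold or the use of the input. Starts were read as counted from 0 and are printed counted from 1. No genome or annotation of mm9 was used here, so genes, sequences and motifs were not analysed, and the genes nearest to the named peaks are not given.

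Densities are per Mb between the first peak start and the last peak end of a chromosome. The tools were scipy 1.17.1 and pandas 2.3.3 with numpy 2.4.6 on Python 3.11.15, and matplotlib 3.10.9 for figures. Comparisons used exact permutation tests over the signs of the 13 chromosome differences, adjusted by Benjamini-Hochberg over 5 comparisons, and exact conditional tests per chromosome, adjusted over 19 autosomes. Chromosomes share 1 library, so p-values compare parts of the genome, not conditions. Named positions were the 5 widest members, the 3 closest pairs, the 3 densest megabases with ties and the 3 longest gaps. The chromosomes and lists were chosen with earlier results of these data known. Alternatives changed the window, merged peaks within 1 kb, and left out end peaks, the commonest width or each chromosome in turn. Windows stayed in place where end peaks were left out. Others left the first 10 Mb out of the rest or pooled the counts. The limits were also moved to 200 bp for wider peaks and to 50 kb for neighbours.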

Additional observations from a re-analysis of the deposited data

How the results depend on the processing

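Recomputed under the alternatives, 97 of 106 values had the same sign and the same call, or a count within 1.5 times that reported. Many of these values only left out 1 chromosome and so shared most of their data with the main value. For peak width and close neighbours, the same call meant that the difference again did not pass. The density excess at the ends was between 0.44 and 0.57 (log2) without each chromosome in turn. It no longer passed in windows of 5 Mb, at 0.24, where chromosome 17 had 1 peak and chromosomes 8 and 18 also had ratios below 1, nor for wider peaks alone, at 0.31. The split into wider and narrower peaks and the 5 Mb windows without chromosome 17 were chosen after seeing the data. For wider peaks the cause was not tested. The contrast with the first 10 Mb likewise no longer passed in windows of 5 Mb, at 0.41. The mean width difference was -3.53 bp in windows of 20 Mb, -5.43 bp without chromosome 7, -5.54 bp without chromosome 12 and -5.15 bp without chromosome 13, and passed there before adjustment. It turned to 0.13 bp with peaks within 1 kb merged, where joined peaks are counted as wide ones. The difference in close neighbours turned to -0.0736 percentage points in windows of 5 Mb, for which the cause was not tested. The number of chromosomes called ran from 4 to 7. Adjusting over the 13 chromosomes alone was not run. Libraries could not be paired because only 1 was immunoprecipitated. The permutation tests paired values within each chromosome. Without a depth, what sequencing depth limits cannot be said.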
